A study of Mus musculus with 7 samples.

Results

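The genes described here belong to the branch of the integrated stress response that runs through the transcription factor ATF4, and there are 10 of them: Atf4, Atf5, Cebpg, Ddit3, Trib3, Ddit4, Sesn2, Asns, Chac1 and Stc2. They were chosen from the measured values, because Trib3, Stc2 and Ddit3 were higher in tertiary than in secondary gliomas, and the others were added as known companions of that pathway. Their differences between the 2 groups are therefore given as a description, with no p-value, and support nothing. All 10 had a probe annotated with 1 gene symbol, among 18193 genes with such a probe. All 10 also passed the filter on dim probes, among 14453 genes that did.

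The data are log2 mRNA levels from Affymetrix mouse arrays, 1 array for each of 7 glioma samples. In every sample the tumour cells had the C57/Bl6 background and overexpressed the growth factor PDGF-B together with EGFP, a green fluorescent protein used to collect them by flow sorting, and every host was a NOD/SCID mouse. This host lacks functional B and T lymphocytes but keeps microglia and other myeloid cells. Secondary gliomas (n = 4) grew from grafted cells of primary gliomas of early onset and low grade, and tertiary gliomas (n = 3) grew from grafted cells of a secondary glioma. The samples are labelled as biological replicates, but neither the donor tumour nor the host of each is named, and no age is given. Errors and p-values here therefore measure the spread between these samples only.

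In the integrated stress response, kinases that sense amino acid shortage, unfolded proteins in the endoplasmic reticulum, haem shortage or viral RNA phosphorylate the translation factor eIF2alpha. Most translation slows, while the Atf4 mRNA is translated more, so that ATF4 protein can rise with little change in its mRNA. ATF4 pairs with C/EBP factors on composite C/EBP-ATF response elements and induces genes for amino acid synthesis, import and tRNA charging, feedback inhibitors, and the death-linked factor CHOP, the product of Ddit3.

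Promoter sequence shows how these elements look in the members. RefSeq windows of build GRCm38.p6, reaching from 250 bases before to 50 bases after an annotated start, were found for 10 of 10 members, with 11 windows in all because Atf5 has a pair of starts. The core letters TGATGNAA, searched on both strands, were present in 3 members, Chac1, Asns and Trib3, and in 3.97% of all 32851 windows. A second composite form, TGACGCAA, was present in Chac1 alone among the members and in 0.49% of windows, and it cannot overlap the first form at the same position. The palindrome TGACGTCA (1.79% of windows) and the endoplasmic reticulum stress response element (0.119%) were in none of the member windows. These are matches of letters in 1 window per start, and binding was not measured.

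The windows of Chac1 and Asns upstream of the start are printed because they carry the matches, in lower case with the matches in capitals, 5′ to 3′ on the gene's strand. Chac1 lies at chr2:119350992-119351241 on the plus strand, with the second form at bases -250 to -243 and the core, read on the opposite strand, at -193 to -186. Asns lies at chr6:7693210-7693459 on the minus strand, with the core at -23 to -16. For Trib3 only the 30 bases around its match are shown, chr2:152344028-152344057 on the minus strand, where the core lies on the opposite strand at bases 15 to 22 after the start.
Chac1: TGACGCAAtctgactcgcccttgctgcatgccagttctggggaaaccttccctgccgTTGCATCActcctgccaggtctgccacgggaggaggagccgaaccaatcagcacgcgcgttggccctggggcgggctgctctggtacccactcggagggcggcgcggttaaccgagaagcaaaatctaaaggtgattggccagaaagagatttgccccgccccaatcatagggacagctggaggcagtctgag
Asns: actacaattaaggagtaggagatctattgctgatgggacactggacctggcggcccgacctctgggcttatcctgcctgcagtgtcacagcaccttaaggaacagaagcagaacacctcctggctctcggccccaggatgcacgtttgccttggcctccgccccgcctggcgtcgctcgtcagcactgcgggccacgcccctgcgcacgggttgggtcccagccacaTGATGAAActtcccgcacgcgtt
Trib3: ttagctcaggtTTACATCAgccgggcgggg

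The arrays had medians between 5.57 and 5.64, and their number limits the precision. Markers of oligodendrocyte precursors, the cells these gliomas resemble, averaged 10.3 ± 0.27 (SD over samples) in the secondary group and 10.5 ± 0.14 in the tertiary group, and 0 of 8 were called by limma across all genes. Microglia and macrophage markers were present in the EGFP-sorted secondary samples, with a list mean from 10.4 to 11.1, and were lower in tertiary gliomas, from 5.94 to 6.90. All 14 of them were called lower, against 6.33% of all genes tested. Markers of mature oligodendrocytes were lower too, at 7.96 ± 0.33 and 6.09 ± 0.52, with 2 of 5 called. Astrocyte markers averaged 6.83 ± 0.64 in secondary and 5.79 ± 0.65 in tertiary gliomas. Endothelial markers averaged 4.84 ± 0.21 and 4.41 ± 0.04, and 0 of 5 tested genes were called in either list. Neuron markers were level, at 6.61 ± 0.08 and 6.63 ± 0.21, with 0 of 4 called. Secondary glioma 3 had the highest microglia mean, 11.1, and the lowest precursor mean of all 7 samples, 9.92, and the results below are given with and without it. In bulk samples, fewer cells of a type and less RNA per cell cannot be told apart, and the part that microglial RNA has in the differences below was not tested.

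Across the members, 10 of 10 had a higher mean in tertiary gliomas, and in 8 of 10 every tertiary value lay above every secondary value. Of all genes tested, 60.6% had a higher tertiary mean and 10.8% had every tertiary value above every secondary value. The fit across all genes called 3 members higher (Ddit3, Trib3 and Stc2) and 0 lower at an adjusted p under 0.05, where 1.04% of all genes were called higher and 6.33% lower. The 3 calls depended on single samples: they became 1 without secondary glioma 1 (Ddit4), secondary glioma 4 (Stc2) or tertiary glioma 3 (Stc2), and 0 without tertiary glioma 2. With secondary glioma 3 left out there were 3, namely Trib3, Asns and Stc2. Because the members were chosen on this contrast, nothing is read from these counts. The median log2 difference, tertiary minus secondary, was 1.15 over the members and 0.09 over all genes tested, and without secondary glioma 3 it was 0.84 and 0.07.

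**Figure D1:**
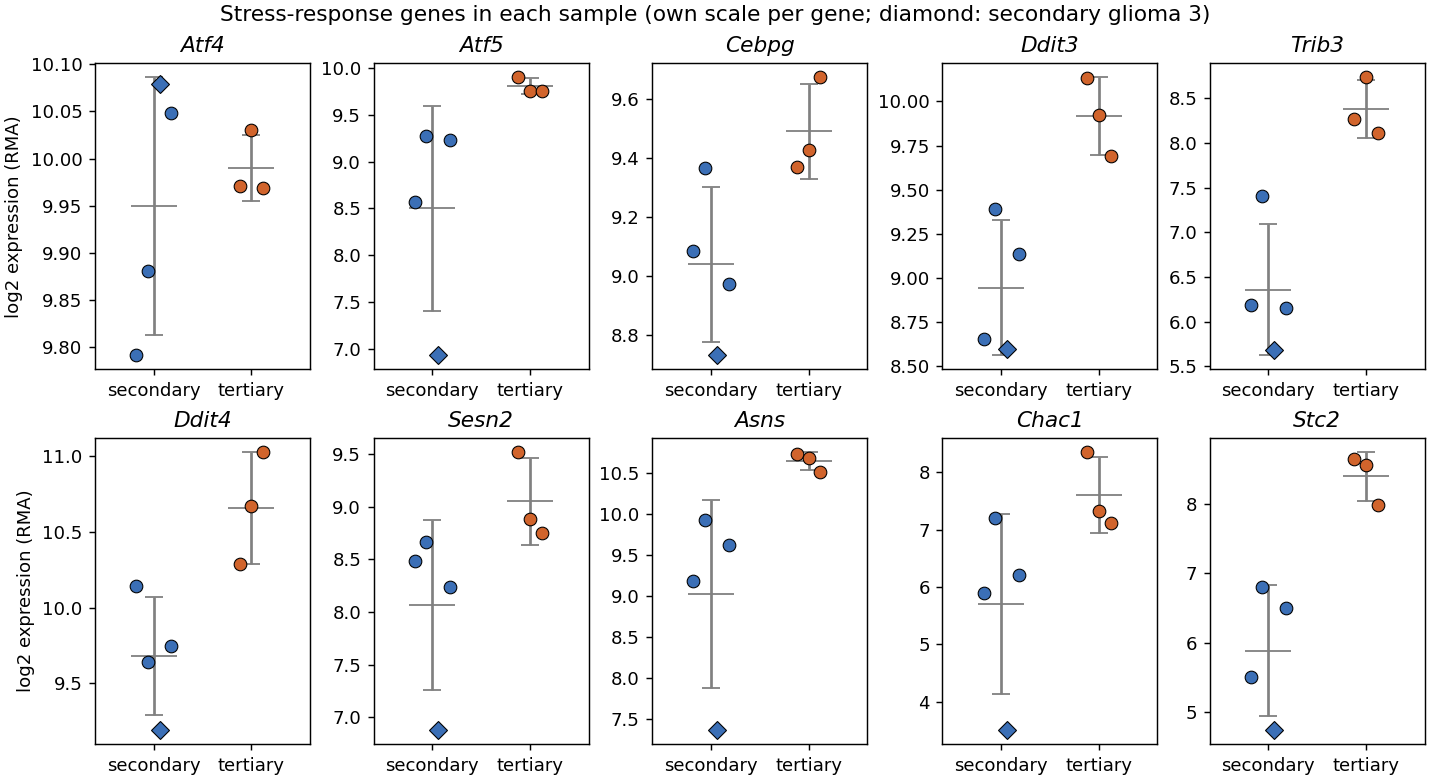
Log2 expression (vertical axis, RMA, a separate scale for each gene) of the 10 genes in secondary (blue, n = 4) and tertiary (orange, n = 3) gliomas. Points are samples, the diamond is secondary glioma 3, and bars give the mean ± SD. The 2 groups overlap in Atf4 and Chac1, and secondary glioma 3 is the lowest point in every gene but Atf4.

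Among the transcription factors, Atf4 itself, the factor that gives the branch its name, was the flattest. Its probe with the highest mean, 1438992_x_at, read 9.79, 9.88, 10.08 and 10.05 in secondary gliomas 1 to 4, and 9.97, 10.03 and 9.97 in tertiary gliomas 1 to 3. The groups overlapped fully, with a difference of 0.04 ± 0.13 (log2, SE of the fit), and the sign turned to -0.01 without secondary glioma 1. That probe is of a kind that may bind related transcripts. A second, gene-specific probe, 1448135_at, read 9.27, 9.81, 9.79 and 9.74 against 10.19, 10.15 and 9.90, a difference of 0.43 ± 0.17 with no overlap, and in it secondary glioma 1 stood below the others. The third probe lay between 4.81 and 5.26 on all arrays and differed by -0.15 ± 0.14. The difference in Atf4 mRNA thus depended on the probe, and protein was not measured.

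Atf5, a relative of ATF4 whose mRNA is likewise controlled in translation, had 1 probe. It read 8.57, 9.28, 6.93 and 9.23 in the secondary gliomas and 9.91, 9.76 and 9.76 in the tertiary gliomas. All tertiary values were higher, and within 0.15 of each other, while the secondary values spanned 2.35. The log2 difference was 1.31 ± 0.53 (SE), and 0.78 without secondary glioma 3.

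Cebpg encodes C/EBP gamma, a dimer partner of ATF4. Its main probe read 9.09, 9.36, 8.73 and 8.97 in secondary and 9.37, 9.43 and 9.67 in tertiary gliomas. Secondary glioma 2 and tertiary glioma 1 nearly touched, and the difference was 0.45 ± 0.18. The other 2 probes also had every tertiary value above every secondary value, with differences of 0.56 ± 0.17 and 0.54 ± 0.24.

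Ddit3 encodes CHOP, a factor linked to cell death under prolonged stress, and was 1 of the genes that prompted the choice. Probe 1417516_at read 8.65, 9.39, 8.60 and 9.14 in secondary gliomas and 10.13, 9.93 and 9.69 in tertiary gliomas, with no overlap. The difference was 0.97 ± 0.23. Its second probe, 1443897_at, went the other way, with 6.58, 7.25, 8.36 and 7.15 against 7.08, 7.03 and 7.32, a difference of -0.19 ± 0.38. Secondary glioma 3 was the highest of all samples in that probe and the lowest in the first, so the 2 Ddit3 probes did not report the same pattern. With both averaged the difference was 0.39.

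Trib3 encodes a pseudokinase that binds ATF4 and CHOP and restrains them. Probe 1456225_x_at, of the kind that may bind related transcripts, read 6.18, 7.41, 5.68 and 6.16 in secondary and 8.27, 8.74 and 8.12 in tertiary gliomas. Secondary glioma 2 stood above the other secondary values and below the tertiary ones. The difference was 2.02 ± 0.39, and 1.79 without secondary glioma 3. The other Trib3 probe, 1426065_a_at, which reads transcripts of 1 gene, gave 4.88, 5.56, 4.16 and 4.39 against 6.58, 6.85 and 6.07, a difference of 1.75 ± 0.35, and its groups did not overlap either.

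Of the members that restrain the growth kinase complex mTORC1, Ddit4 (also known as REDD1), which acts through the TSC complex, had 1 probe. It read 10.15, 9.64, 9.19 and 9.75 in secondary and 10.29, 10.67 and 11.03 in tertiary gliomas. The groups were separate by a narrow margin, and the difference was 0.98 ± 0.26. Here secondary glioma 1, not 2, was the highest of its group, and tertiary glioma 3 was the highest of all samples.

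Sesn2 encodes a sestrin that senses leucine and inhibits mTORC1 through the GATOR complexes. Its main probe read 8.49, 8.66, 6.88 and 8.24 in secondary and 9.52, 8.88 and 8.75 in tertiary gliomas. Secondary glioma 3 lay far below the other values and tertiary glioma 1 above them. The difference of 0.99 ± 0.43 became 0.59 without secondary glioma 3. The second Sesn2 probe had overlapping groups and a difference of 0.46 ± 0.25.

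Asns, the enzyme that makes asparagine and a classical target of ATF4, had closely spaced tertiary values and widely spread secondary values. Its main probe read 9.19, 9.93, 7.36 and 9.62 in secondary gliomas and 10.74, 10.69 and 10.52 in tertiary gliomas. The tertiary SD was 0.11 and the secondary SD 1.15, or 0.38 without secondary glioma 3. The difference of 1.62 ± 0.56 became 1.07 without that sample. The second Asns probe moved alike, at 1.36 ± 0.59.

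Chac1 encodes a gamma-glutamylcyclotransferase that breaks down glutathione. Its only probe read 5.89, 7.21, 3.51 and 6.21 in secondary and 8.36, 7.33 and 7.12 in tertiary gliomas. The groups overlapped, since secondary glioma 2 lay above tertiary glioma 3, and the value of secondary glioma 3 was below the dim filter at 3.99. The difference was 1.90 ± 0.80, and 1.16 without secondary glioma 3.

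Stc2, a secreted glycoprotein induced by stress in the endoplasmic reticulum, had the largest mean difference of the members' chosen probes. Probe 1449484_at read 5.50, 6.80, 4.74 and 6.50 in secondary and 8.65, 8.56 and 7.99 in tertiary gliomas, with no overlap. The difference was 2.51 ± 0.48, and 2.13 without secondary glioma 3. The 2 dimmer Stc2 probes differed in size. Probe 1445186_at gave 1.87 ± 0.33 with no overlap, while probe 1419503_at gave 0.65 ± 0.20, and in it secondary glioma 2 and tertiary glioma 3 were level at 6.09.

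**Figure D2:**
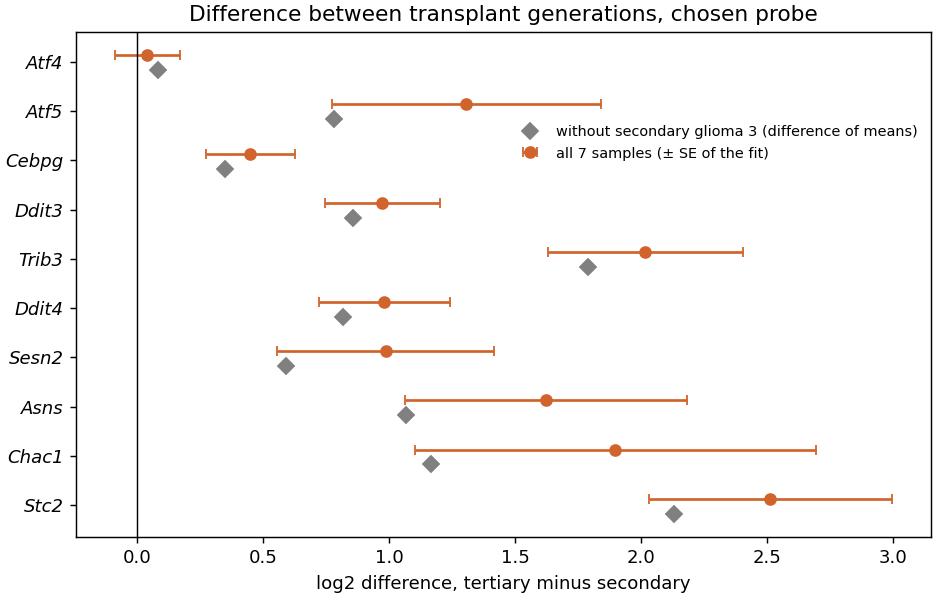
Log2 difference, tertiary minus secondary (horizontal axis), for each gene (vertical axis). Circles use all 7 samples with the SE of the fit, and diamonds leave out secondary glioma 3. Every circle is at or above 0.04, and Atf5, Sesn2, Asns and Chac1 move most toward 0 without that sample.

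Over all 20 probes of the 10 members, 18 had a positive difference and 14 had every tertiary value above every secondary value. Of all 34945 probes with 1 gene symbol, 60.3% had a positive difference and 9.24% had that separation. The probes of a gene share its transcript and the members were chosen on this contrast, so nothing is read from these counts. The 2 with a negative difference were the dimmest Atf4 probe and the second Ddit3 probe.

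The members were chosen for a rise from secondary to tertiary gliomas, which a low value in secondary glioma 3 enlarges. The orders of samples below are therefore not free of that choice, and nothing is read from them. Secondary glioma 3 was the lowest of the 4 secondary samples in 9 of 10 members (90% against 33% of all genes tested), and Atf4 was the exception, with its highest value there. The order also depended on the probe. Secondary glioma 1 was the lowest in the other 2 Cebpg probes, in the second Ddit3 probe and, narrowly, in Stc2 probe 1419503_at. On the chosen probes, secondary glioma 3 lay at least 1 below the mean of the other secondary samples, on the log2 scale, in 5 of 10 members. The share over all genes was 3.31%. The gap was -2.93 for Chac1, -2.22 for Asns, -2.10 for Atf5, -1.58 for Sesn2 and -1.53 for Stc2. On the second Asns probe secondary glioma 3 was also far below, at 7.13 against 9.01, 9.55 and 9.72. It lay less far below on the second Sesn2 probe, at 7.75 against 8.07, 8.08 and 7.77. The same held for Stc2 probe 1445186_at, at 4.17 against 4.26, 5.16 and 4.58. On Stc2 probe 1419503_at it read 5.52 against 5.51, 6.09 and 5.82. Secondary glioma 2 was the highest of its group in 8 of 10 members, where the share over all genes was 23.2%. Among tertiary gliomas, sample 1 was the highest in 6 members and sample 3 the lowest in 8, and the shares over all genes were not computed for these. No test was made of these orders, since each rests on single samples.

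On the chosen probes, the SD was larger in the secondary group in 10 of 10 members and in 48.3% of all genes tested, and without secondary glioma 3 these were 8 of 10 and 37.6%. The median SD of the members was 0.77 in secondary gliomas, 0.38 without sample 3, and 0.27 in tertiary gliomas, beside 0.23, 0.18 and 0.24 over all genes. Over all 20 member probes the secondary SD was the larger in 18, against 51.1% of all probes with 1 symbol, and the exceptions were the second Sesn2 probe (0.18 against 0.53) and the Stc2 probe 1445186_at (0.45 against 0.57). With all samples, a larger secondary SD was also found in 13 of 13 tRNA synthetase and export genes and in 13 of 18 amino acid genes. It was thus not peculiar to the members. Without secondary glioma 3 these counts were 8 of 13 and 8 of 18, beside 8 of 10 members and 37.6% of all genes.

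**Figure D3:**
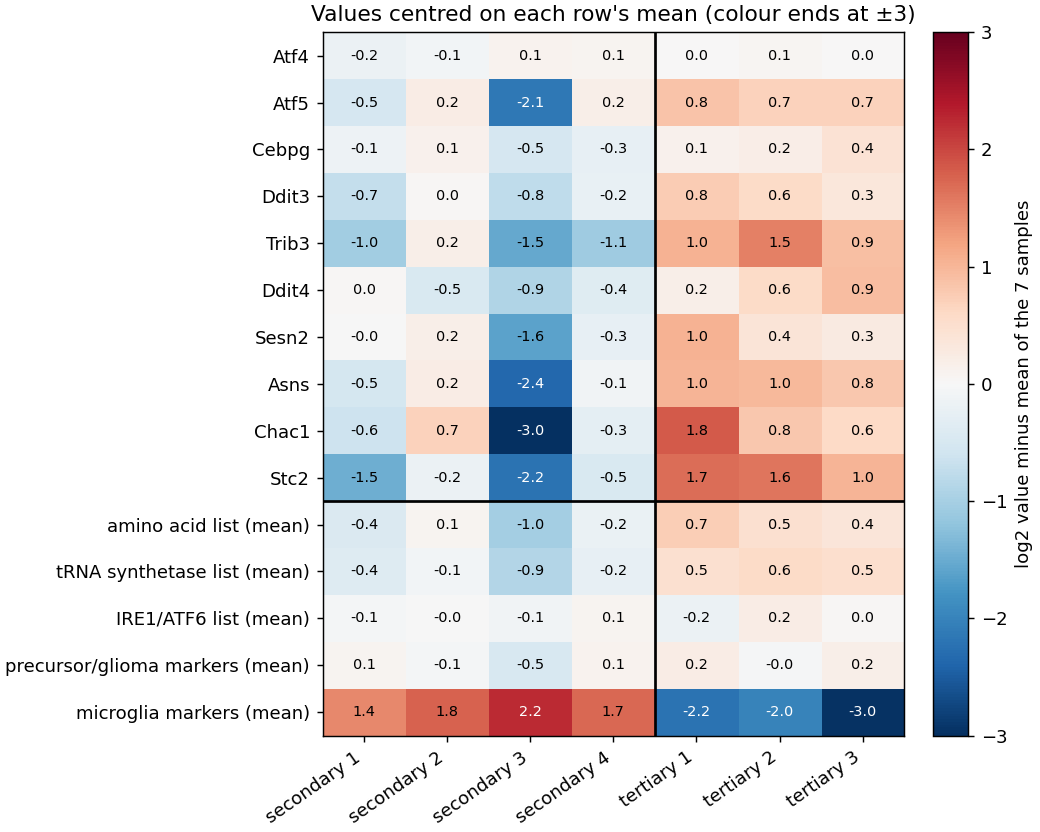
Log2 value minus the mean of the 7 samples (colour and printed number) for the 10 genes and 5 list means (rows) in each sample (columns). Colours end at 3 above and below. Secondary glioma 3 is the darkest blue column in most member rows, and it is also the lowest sample of the amino acid and tRNA synthetase lists and the highest of the microglia markers.

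Other genes of the pathway were taken from 8 lists, in which 122 distinct genes were tested with the members left out. Of these, 12 were called higher and 10 lower by limma's adjusted p, against 1.04% and 6.33% of all genes. Their median log2 difference was 0.22. The lists were drawn up with earlier results of these data known, so the counts are no independent evidence of a direction.

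Enzymes that charge tRNA with amino acids, and the tRNA export receptor Xpot, were called higher in 8 of 13 cases and lower in 0. The shares over all genes tested were 1.04% and 6.33%. These enzymes belong to a list drawn up with earlier results known. Their median log2 difference was 0.92, or 0.76 without secondary glioma 3. With all samples, 13 of 13 differences were positive, against 60.6% of all genes tested. The synthetase for tryptophan, Wars, rose by 1.14 ± 0.19 (SE; adjusted p = 0.00851, limma), that for leucine, Lars, by 1.28 ± 0.24 (0.0165), that for serine, Sars, by 0.80 ± 0.15 (0.0186) and that for glycine, Gars, by 1.01 ± 0.20 (0.0218). The call of Wars held when any single sample was left out. Those of Lars, Sars and Gars were lost without tertiary glioma 2, at adjusted p of 0.0734, 0.0703 and 0.0900, and Gars and Lars also without tertiary glioma 3 (0.0776 and 0.0638) and Gars without secondary glioma 4 (0.0543). The 8 calls became 4, 6, 9 and 3 without secondary gliomas 1 to 4, and 7, 1 and 2 without tertiary gliomas 1 to 3. Secondary glioma 3 was the lowest of its group in 12 of 13 of these genes. Of 9 genes of this list with a RefSeq promoter window, 5 (Aars, Gars, Iars, Tars and Yars) held the TGATGNAA core. Of the other 89 pathway genes with a window 9 held it, and of all genes with a window 4.51%.

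Amino acid synthesis and import genes had a positive difference in 17 of 18 cases, against 60.6% of all genes tested. Their median was 1.00. Against 1.04% of all genes tested, 2 of the 18 were called higher. These were the mitochondrial one-carbon enzymes Shmt2 (1.57 ± 0.31; adjusted p = 0.0229) and Mthfd2 (1.63 ± 0.33; adjusted p = 0.0251). Both calls were lost without tertiary glioma 2 (0.0865 and 0.0922) or tertiary glioma 3 (0.0934 and 0.102) and without secondary glioma 1 (0.0569 and 0.0618), and that of Mthfd2 also without secondary gliomas 3 (0.0586) and 4 (0.0639). The count of calls became 0, 3, 2 and 1 without secondary gliomas 1 to 4, and 3, 0 and 0 without tertiary gliomas 1 to 3. Without secondary glioma 3 the median difference was 0.67. The list mean ran from 7.41 in secondary glioma 3 to 8.51 in secondary glioma 2, and from 8.80 to 9.17 in tertiary gliomas.

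**Figure D4:**
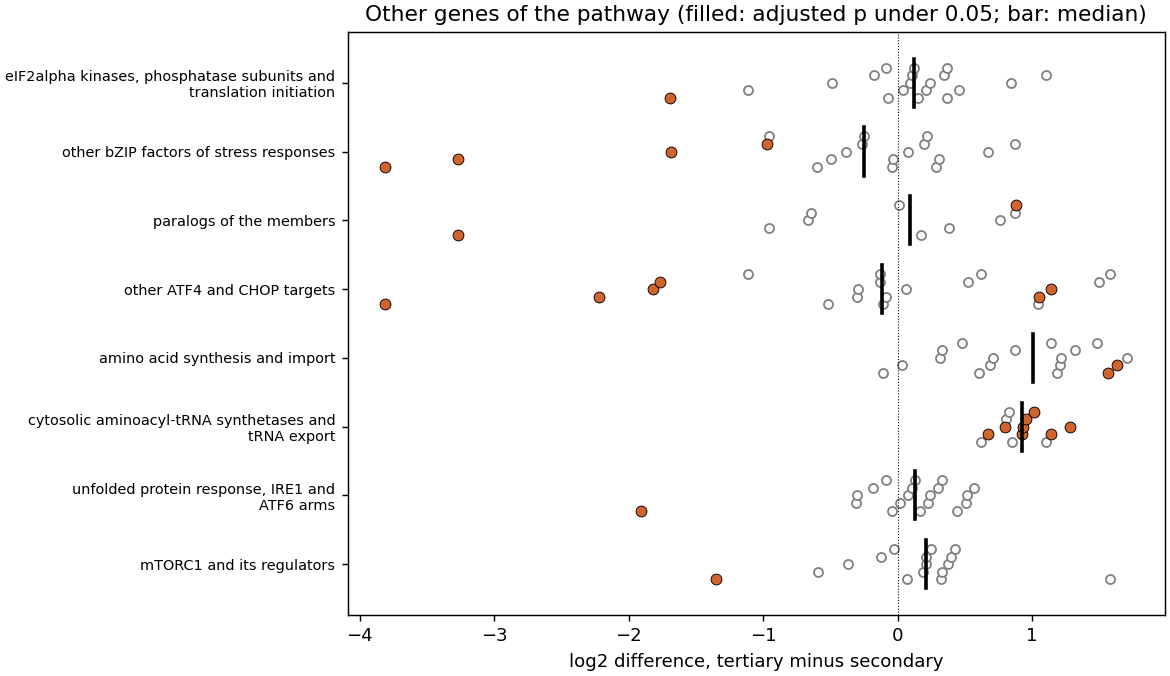
Log2 difference, tertiary minus secondary (horizontal axis), of each tested gene in 8 pathway lists (vertical axis). Filled points passed an adjusted p under 0.05 in the fit across all genes, open points did not, and bars mark medians. The bars of the tRNA synthetase list (0.92) and the amino acid list (1.00) lie apart from those of the other lists, which lie between -0.25 and 0.21.

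Of 19 kinases, phosphatase subunits and initiation factors around eIF2alpha, 0 were called higher and 1 was called lower (median 0.12), near the background of 1.04% and 6.33% of all genes. That gene, Impact, which restrains the amino acid sensor GCN2, fell by 1.70 on the log2 scale (SE 0.31; adjusted p = 0.0151), or 0.0684 without tertiary glioma 2, when the list had 0 lower. Without tertiary glioma 1 the list had 2 higher.

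The other stress factors of the same bZIP family were called lower in 4 of 19 cases and higher in 0 (median -0.25). Of all genes tested, 6.33% were called lower and 1.04% higher. Atf3, which is induced by ATF4 and by many other signals, fell by 3.81 on the log2 scale (SE 0.26; adjusted p = 0.000116), and the myeloid and fat cell factor Cebpa fell by 3.27 (SE 0.42; adjusted p = 0.00258). Nfe2l2, the factor of the antioxidant response, fell by 1.69 (SE 0.35; adjusted p = 0.0256) and Creb3l2 by 0.97 (SE 0.20; adjusted p = 0.0262). The last pair lost the call without any of secondary gliomas 2 (0.0737 and 0.0708) and 3 (0.0586 and 0.0652) or tertiary glioma 3 (0.0776 and 0.0600), Nfe2l2 also without secondary glioma 4 (0.0550) and Creb3l2 also without secondary glioma 1 (0.0596) and tertiary glioma 2 (0.0646). The 4 calls were 2 without secondary gliomas 2 or 3 or tertiary glioma 3. In the tertiary samples all 14 microglia and macrophage markers were also lower, by a median log2 difference of -4.27, and their part in these falls was not tested.

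The 20 other tested targets of ATF4 and CHOP included 2 called higher and 4 called lower, with a median difference of -0.12. The shares over all genes tested were 1.04% and 6.33%. Beside Atf3 and Wars, the genes named by lowest p were the death effectors Pmaip1, which fell by 2.22 (SE 0.30; adjusted p = 0.00312), and Bcl2l11, which fell by 1.82 (SE 0.28; adjusted p = 0.00609). The remaining 2 calls, named after their values were seen, were the oxidoreductase Ero1a at 1.05 ± 0.20 (adjusted p = 0.0186) and Ndrg1 at -1.77 ± 0.43 (adjusted p = 0.0493). Ero1a lost its call without tertiary glioma 2 (0.0812), and Ndrg1 kept its call in 1 of the 7 fits that left out a sample, with adjusted p up to 0.148. The 2 higher calls became 5 without secondary glioma 2, 3 without secondary glioma 3 and 1 without tertiary glioma 2.

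Paralogs of the members split, with 1 of 10 called higher and 1 lower, against 1.04% and 6.33% of all genes tested. Stc1, the paralog of Stc2, rose by 0.88 ± 0.21 (adjusted p = 0.0445), a call kept in 1 of the 7 fits that left out a sample, with adjusted p up to 0.153, and Cebpa was the gene that fell. The other arms of the unfolded protein response, through IRE1 and ATF6, had 0 of 19 called higher and 1 lower (median 0.13), near the shares over all genes. The gene called lower was the degradation factor Edem1, which fell by 1.91 (SE 0.26, limma adjusted p = 0.00323). Without tertiary glioma 1 that list had 1 higher. Near those shares too, 0 of 16 genes of mTORC1 and its regulators were called higher and 1 was called lower. This was the mTOR inhibitor Deptor, at -1.35 ± 0.30 (adjusted p = 0.0333), a call kept in 1 of the 7 fits that left out a sample, with adjusted p up to 0.105. Without secondary glioma 2 that list had 1 higher, and without any of secondary gliomas 2 and 3 or tertiary gliomas 2 and 3 it had 0 lower.

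Genes whose profile was most like that of the 3 members that prompted the choice were found by the root mean square difference of log2 values. Each gene was centred on its mean over the 7 samples, which keeps the difference between the groups. As the 3 members were chosen for their rise, their nearest genes share that rise by selection, and nothing is read from it. Nearest to Trib3 were the one-carbon enzyme Mthfd2 (0.35), the translation repressor Eif4ebp1 (0.37) and the amino acid transporter Slc6a15 (0.37), where the SD of Trib3 itself was 1.21. Mthfd2, for example, read 6.81, 8.02, 6.61 and 7.24 in secondary and 8.51, 8.82 and 9.07 in tertiary gliomas. Nearest to Stc2 were the vesicle protein Syt4 (0.36), the collagen receptor Ddr2 (0.48) and again Eif4ebp1 (0.48), beside an SD of 1.51. Nearest to Ddit3 were the mitochondrial chaperone Hspa9 (0.08), Stc1 (0.09) and the epoxide hydrolase Ephx2 (0.12), beside an SD of 0.60. Of these, Stc1 was near the dim filter in secondary gliomas. Hspa9 read 9.63, 10.15, 9.35 and 9.89 in secondary and 10.95, 10.82 and 10.62 in tertiary gliomas. It had the same order of samples as Ddit3 within each group, which picking the nearest of all tested genes favours.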

How the data were processed

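The 7 arrays carried cDNA amplified from flow-sorted, EGFP-positive glioma cells. The deposited log2 values are RMA output, per the submitters' processing notes. That the scale is log2 follows from their range, and no RMA version was given. RMA equalises the arrays and compresses differences of dim probes. Scanner files, detection calls and scan dates were not analysed here. The table had 0 columns of other samples.

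Of 45101 probes, 34945 had 1 gene symbol. Each gene was represented by 1 probe, that of highest mean level, and genes below the 25th percentile of all probe means (3.99) were left out. Tertiary and secondary gliomas were compared with limma 3.58.1 (lmFit and eBayes) under R 4.3.3. P-values of 14453 genes were adjusted by Benjamini-Hochberg at a threshold of 0.05. SEs of further probes come from a fit over all probes. The steps were tested on simulated data. No pair of arrays had identical values at over 5.39% of probes, so none was a duplicate.

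The members and lists were chosen with earlier results of these data known. From each list up to 4 called genes by lowest p were named, or up to 2 where none was called, plus the 3 nearest profiles of Trib3, Stc2 and Ddit3. Motifs were counted in RefSeq promoter windows of GRCm38.p6. Figures used matplotlib 3.10.9, pandas 2.3.3 and Python 3.11.15. Alternatives covered probe averaging, the dim filter, quantile normalization, median centring, variance models, array weights, a replicate block, the threshold and leaving out each sample.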

Additional observations from a re-analysis of the deposited data

Results flagged for a closer look

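Each group of 4 secondary gliomas was checked for a sample whose gap to the nearest of the others exceeds Dixon's critical share of the group's range. Of 105 genes, probes and list means named or used, 9 had such a sample, and chance flags about 1 in 20. Among the chosen probes of the 10 members there was none, although the share reached 0.763 in Sesn2. The second Atf4 probe was low in secondary glioma 1, at 9.27 against 9.74 for the nearest.

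Secondary glioma 3 accounted for 6 of the 9. It was high in Atf3 (11.04, nearest 10.10), Impact (8.91, nearest 7.85), Pmaip1 (8.26, nearest 7.80) and the myeloid integrin Itgam (8.37, nearest 7.10). It was low in Ptprz1, a marker of precursors and glioma (10.21, nearest 10.82), and in the vascular receptor Flt1 (6.57, nearest 7.37). Secondary glioma 1 was high in Kdr (5.81, nearest 5.46) and in Syt1 (4.31, nearest 4.22).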

How the results depend on the processing

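Member differences kept their sign under the alternatives run (all probes averaged, quantile normalization, median centring, array weights, the replicate block and leaving out each sample), except Atf4, which ran from -0.01 to 0.11. Array weights lowered Atf5 to 0.82, Chac1 to 1.03 and Sesn2 to 0.57. By probe, Ddit3 reversed to -0.19 in its second probe, and the cause was not tested. Over all genes, the 151 called higher became 668 with array weights, which gave secondary glioma 3 a weight of 0.471 and tertiary glioma 1 of 0.382, 437 at an adjusted p under 0.10, and 27 to 784 when 1 sample was left out (lowest without tertiary glioma 2, highest without tertiary glioma 1). With the replicate block, 61 genes were higher and 575 lower (915 without it), and 5 list genes were higher. Same-numbered samples did not deviate together (r between -0.144 and 0.0361 over genes), and no sample correlated best with its own number, so the numbers were not taken as pairs. The 12 list genes called higher became 1 to 15, and the 10 called lower 6 to 9, when 1 sample was left out. No other alternative moved a count by over 1.5 times. Dim probes, such as that of Chac1 in secondary glioma 3, limit the size of differences.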
